A study of Mus musculus with 2 samples.

Results

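The stomach fibroblasts at embryonic day 19 (E19) were the 701 cells that carried the authors' label Stromal together with the sample tag of the stomach at E19. They formed 8.98% of the 7808 cells of the series and 50.0% of the 1403 stomach cells of that stage (exact 95% interval 47.3% to 52.6%). They were described across genes beside 360 Stromal cells of the stomach at E15 and 739 Stromal cells of the esophagus at E19. The study profiled single cells from stomach, esophagus and the gastroesophageal squamocolumnar junction (GE-SCJ), the line at which the squamous lining of the esophagus meets the columnar lining of the stomach. Tissues came from wild type C57BL/6 mice at E15, at E19, as pups of day 2 and as adults of 8 weeks, without a transgene or a treatment named in the labels for these tissues. The labels give 6 embryos at E15 and 2 at E19, pooled within each region and stage, while the methods speak of cells combined from 3 mice. Each group was therefore 1 pooled sample without a replicate, no test between groups was possible, and every interval below covers counting error only. Whether the regions of a stage came from the same embryos is not given in the sources used here.

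The stroma of the stomach wall lies between the epithelium and the muscle and is laid down by splanchnic mesenchyme. Its fibroblasts secrete collagens and proteoglycans and send BMP, WNT and growth factor signals to the epithelium, while sonic and Indian hedgehog from the epithelium signal back through the receptor PTCH1. Barx1, a homeobox gene of the stomach mesenchyme, is known for holding down WNT signalling in the developing stomach, and without it the stomach epithelium takes on intestinal features.

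Membership in the 3 groups rested on 15-base tags on lipid-anchored oligonucleotides that marked the cells of a region and stage before all cells were loaded together. The tags are shown because they are the only thing that assigns a cell to a stage and region, with capitals at the 8 positions where all 3 differ.
Stomach E19 (CMO306): aagAtgaGGTcTGTG
Stomach E15 (CMO303): ccgTcgtCCAaGCAT
Esophagus E19 (CMO304): aacGttaATCaCTCA
The stomach E19 tag differed from the stomach E15 tag at 13 bases and from the esophagus E19 tag at 11 bases. All 7808 cell barcodes were distinct, so no barcode was shared between groups.

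The 701 cells held 6611786 UMIs (unique molecular identifiers, each standing for 1 captured transcript). A cell had a median of 9025 UMIs, from 1248 to 33323, a median of 3253 genes and a median of 2.05% mitochondrial UMIs. The stomach at E15 gave 3818040 UMIs with a median of 9858 per cell, and the esophagus at E19 gave 6979256 with a median of 9172. Depth per cell was thus close in the 3 groups. Levels are given as counts per 1000000 UMIs (CPM) after adding up each gene's UMIs within a group, and 3 UMIs, the limit that a count of 0 allows, equal 0.454 CPM in the stomach at E19. These are 3′ counts without a length correction, so levels are compared between groups and not between genes. In such sums, fewer cells that use a gene and less RNA of it per cell cannot be told apart.

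Over the group as a whole, the label held up against its markers. Col1a1, which encodes a chain of type I collagen, stood at 5148 CPM in the stomach fibroblasts at E19, against 132 CPM in the columnar epithelial cells of the same tag and 242 CPM in its immune cells. Col3a1, of type III collagen, was at 6300 CPM (6239 to 6360), and Pdgfra, a receptor of platelet-derived growth factor on mesenchymal cells, at 209 CPM (198 to 221). Barx1 (chr13:48662998-48666507, plus strand, GRCm38) was at 393 CPM (378 to 409), and 93.3% of the 701 cells held at least 1 of its UMIs. Barx1 was at 9.27 CPM in columnar epithelial cells and at 581 CPM in the separately labelled smooth muscle cells of the stomach at E19, so it did not set these fibroblasts apart from muscle. The 10 fibroblast markers together summed to 19699 CPM here, against 458 CPM in columnar epithelial cells, 4772 CPM in smooth muscle cells and 772 CPM in immune cells of the same tag.

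Markers of other cells were present at differing levels. The 7 smooth muscle markers summed to 2625 CPM, against 53615 CPM in the smooth muscle cells of the same tag. Pericyte markers summed to 527 CPM, and those of interstitial cells of Cajal, the pacemaker cells of the gut wall, to 304 CPM. Smooth-muscle-like and Cajal-like subclusters of the fibroblasts are described below. The 8 columnar markers, led by the pepsinogen gene Pgc, summed to 1708 CPM in the stomach fibroblasts at E19, 1537 CPM in those at E15, and 1678 CPM in the esophagus at E19, against 14440 CPM in columnar cells. Enteric neural, endothelial and immune markers summed to 13.9, 16.3 and 22.7 CPM, and the muscle regulator Myod1 had 0 UMIs, which allows up to 0.454 CPM. Hbb-bs, a globin gene of red blood cells, differed between the groups, with 232 CPM in the stomach at E19, 393 CPM at E15 and 1029 CPM in the esophagus at E19. The part of such free or carried RNA in single results was not tested.

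The groups also differed in the sex of their cells. Cells with Xist UMIs and none of a Y-linked gene numbered 267 in the stomach at E19, 43 at E15 and 366 in the esophagus at E19, and cells with Y-linked UMIs and none of Xist numbered 227, 169 and 200. Both kinds of UMI occurred in 103, 94 and 88 cells. Stage and sex were thus unequally mixed, most of all at E15. Xist, Tsix and Y-linked genes were left out of the genes named below, but other X-linked genes were not.

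Between E15 and E19, genes of the matrix such as Mfap5 and Postn and of smooth muscle such as Tagln stood higher in the stomach fibroblasts, and Crabp1, Hmga2 and Sox11 stood lower. Of 9394 genes with at least 100 UMIs over both groups, 179 (1.91%) were at least 2-fold higher at E19 and 81 (0.862%) were at least 2-fold lower. The counting interval of the log2 ratio excluded 0 for all 179 and all 81, which followed from the 2-fold mark and the UMI minimum and adds no support. The median log2 ratio over the 9394 genes was -0.08. A gene is called higher or lower below only when it passed this 2-fold mark.

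Matrix genes were among those with the largest ratios. Mfap5, whose product binds the microfibrils of elastic fibres, stood at 465 CPM (448 to 481) at E19 and at 49.0 CPM (42.2 to 56.5) at E15, a log2 ratio of 3.24 (3.03 to 3.46). Postn, which encodes the matricellular protein periostin, was at 190 CPM (179 to 200) against 25.1 CPM (20.4 to 30.7), a log2 ratio of 2.90 (2.60 to 3.21). Tnc, for the glycoprotein tenascin-C, was at 108 CPM (101 to 117) against 16.0 CPM (12.2 to 20.5), a log2 ratio of 2.74 (2.37 to 3.14). None of these intervals overlapped between the stages. Tnxb, a relative of tenascin-C, had 68.4 and 10.2 CPM, and Col6a5, a chain of type VI collagen, had 97.7 and 15.5 CPM.

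Among 25 matrix proteoglycans and glycoproteins that could be compared, 8 were higher at E19 and 0 lower, with a median log2 ratio of 0.71. Of the small leucine-rich proteoglycans, 3 passed 2-fold, with Dcn (decorin) at 1989 against 934 CPM, Bgn (biglycan) at 548 against 205 CPM and Aspn (asporin) at 668 against 212 CPM, while Lum (lumican), at 677 against 382 CPM, and Ogn (osteoglycin), at 480 against 292 CPM, did not. Of 22 collagens, 5 were higher and 2 lower, with a median of 0.59. Col15a1, a collagen of basement membrane zones, was at 181 CPM (171 to 192) against 33.0 CPM (27.5 to 39.3), and the basement membrane chains Col4a5 and Col4a6 were at 204 against 85.1 and 54.6 against 15.5 CPM. The main fibrillar collagens did not reach 2-fold, with Col1a1 at 5148 against 3439 CPM and Col3a1 at 6300 against 3957 CPM. Elastic fibre and crosslinking genes gave 2 higher and 0 lower of 18, with a median of 0.51, and the second of the 2 was Eln (elastin) at 429 against 210 CPM.

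Genes that in adult gut mark submucosal and adventitial fibroblasts were higher at E19 in 6 of 10 compared, 0 lower and a median of 1.16. Dpt (dermatopontin) was at 283 CPM (270 to 296) against 56.0 CPM (48.8 to 64.1), Cd34, a sialomucin of progenitor and adventitial cells, at 127 against 33.8 CPM, and Clec3b (tetranectin) at 31.0 against 3.14 CPM. Subepithelial fibroblast genes gave 4 higher and 0 lower of 14, with a median of 0.48. The smooth muscle list was also higher, with 6 of 7 genes, 0 lower and a median of 1.69. Acta2 (smooth muscle actin) stood at 1423 against 469 CPM and Tagln (transgelin) at 646 against 171 CPM. Most Tagln UMIs of the E19 cells lay in 1 smooth-muscle-like subcluster described below, and its part in the other ratios was not tested.

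Other genes named by size of ratio were AW112010, a transcript without a known role here, at 20.9 against 1.83 CPM, Agt (angiotensinogen, the precursor of angiotensin) at 94.7 against 12.0 CPM, Nckap5 at 23.0 against 2.62 CPM, and Unc13c, of synaptic vesicle priming, at 29.2 against 3.93 CPM. Wnt4, a WNT ligand, was at 81.4 CPM (74.6 to 88.5) against 14.9 CPM (11.3 to 19.3). It was not named by rule because another class of the pool held over 5 times its level. The BMP list had 1 of 8 ligands higher, Bmp5, at 39.6 against 18.6 CPM.

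Crabp1, which binds retinoic acid in the cytoplasm, was at 18.8 CPM (15.6 to 22.4) against 172 CPM (159 to 185) at E15, a log2 ratio of -3.18 (-3.47 to -2.91). Bcl11a, a zinc finger repressor, was at 12.9 against 75.4 CPM, Nnat (neuronatin, an imprinted gene) at 30.9 against 137 CPM, Cxcl13, a B cell chemokine, at 9.23 against 46.1 CPM, and Scx (scleraxis, a regulator of tendon cells) at 4.54 against 18.9 CPM. Opcml, Mpped2, Brinp1, Tmem200a and Gfra1, the receptor of GDNF, completed the 10 named, with Gfra1 at 15.9 against 53.7 CPM. For Cxcl13, 55.7% of the UMIs at E19 lay in 1 subcluster.

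Of 18 compared fetal growth and imprinted genes, 3 were lower at E19 and 0 higher, with a median of -0.48. These were Hmga2, an architectural chromatin protein of embryonic cells, at 48.5 against 147 CPM, Sox11 at 102 against 293 CPM and the RNA-binding Igf2bp1 at 27.1 against 60.2 CPM. The growth factor list had 3 of 22 lower, Ptn (pleiotrophin) at 428 against 1167 CPM, Fgf10 at 25.9 against 66.5 CPM and Gdnf at 13.3 against 33.5 CPM, and 2 higher, Fgf7 at 16.5 against 4.45 CPM and Vegfd. Kit, the marker of interstitial cells of Cajal, was also lower, at 71.1 against 152 CPM, with a UMI in 7.77% against 22.2% of cells thinned to 5000 UMIs and in 6.72% of the immune cells of the pool (3.96% to 10.5%), a class to which mast cells, known to express Kit, belong. The E19 share lay within that interval, but the Kit UMIs were unevenly spread over the cells. A Kit-rich subcluster described below held 83.6% of the Kit UMIs, 54.5% of the Gdnf UMIs and 20.5% of the Fgf10 UMIs at E19. Without cells that held a Kit UMI, an alternative chosen after seeing the data, Gdnf was at 6.45 against 10.4 CPM and no longer passed 2-fold, and Fgf10 was at 21.4 against 45.4 CPM. None of 20 mitosis genes and none of 16 DNA replication genes passed 2-fold, where 0.862% of all genes were 2-fold lower. Both medians, -0.26 and -0.27, were below 0, and a ratio above 0 was found for 0 mitosis and 2 replication genes. The mitosis list summed to 1747 CPM at E19 against 2163 CPM at E15. Mki67, the proliferation marker, was at 129 CPM (121 to 138) against 194 CPM (180 to 209). The retinoic acid list split, with 4 higher, among them the synthesis enzyme Aldh1a2 at 78.2 against 35.1 CPM, and 3 lower, Crabp1, Crabp2 and the receptor Rarb, of 12.

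**Figure D1:**
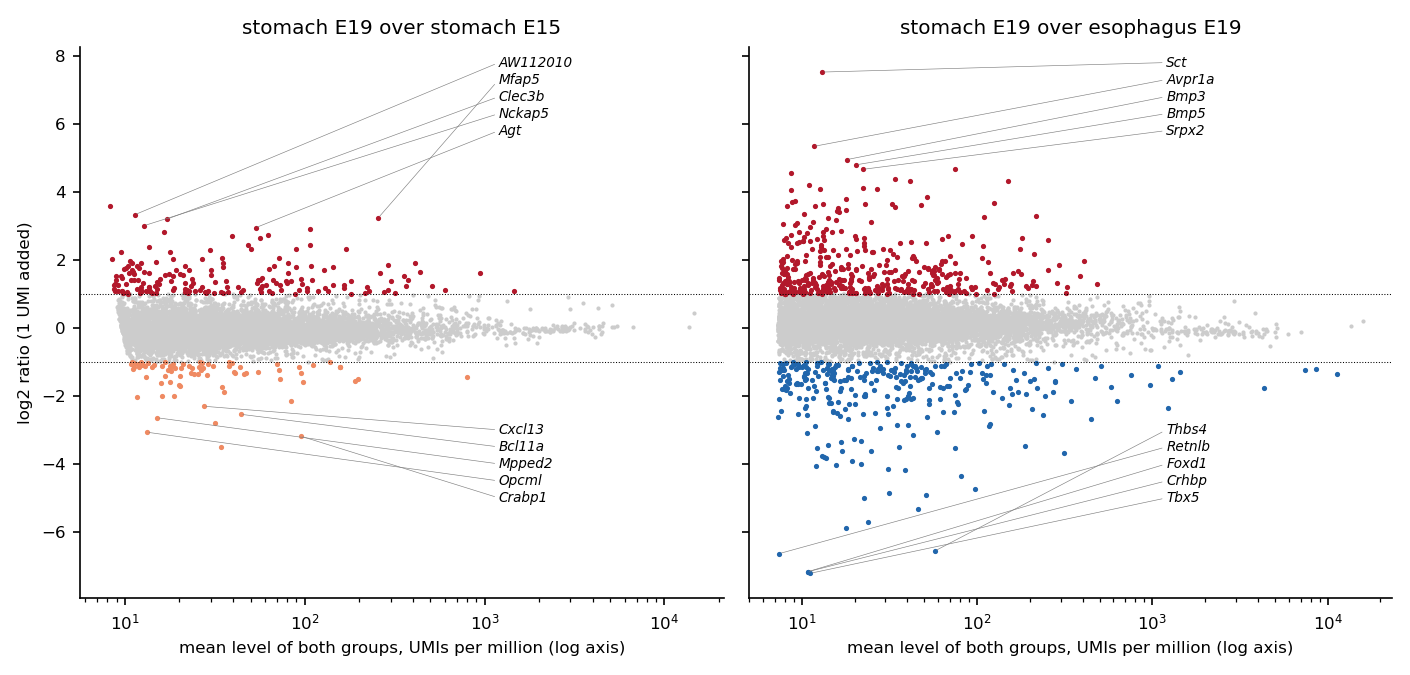
Each dot is a gene with at least 100 UMIs over both groups. The horizontal axis is the mean level of both groups (log axis), and the vertical axis is the log2 ratio of the stomach at E19 over the stomach at E15 (left) or over the esophagus at E19 (right), with dotted lines at 2-fold and the first 5 genes named by rule in each direction labelled. Colored dots beyond the dotted lines number 179 above and 81 below on the left, and 411 above and 305 below on the right, less Xist and Tsix, which are not drawn.

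Between regions the differences were more numerous and larger. Of 10009 genes compared with the esophagus at E19, 411 (4.11%) were at least 2-fold higher in the stomach fibroblasts and 305 (3.05%) were at least 2-fold lower. The counting interval excluded 0 for all of them, which again followed from the 2-fold mark and the UMI minimum. The median log2 ratio of all 10009 genes was 0.14, and list medians below are to be read against that shift. With ratios centred on it, 324 genes were at least 2-fold higher and 376 lower, so that the larger count moved to the esophageal side. Barx1, Isl1, Hoxa5, most BMP ligands and the hedgehog target Ptch1 stood higher in the stomach, and Col1a1, Col3a1, Dcn and most adventitial genes stood lower.

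**Figure D2:**
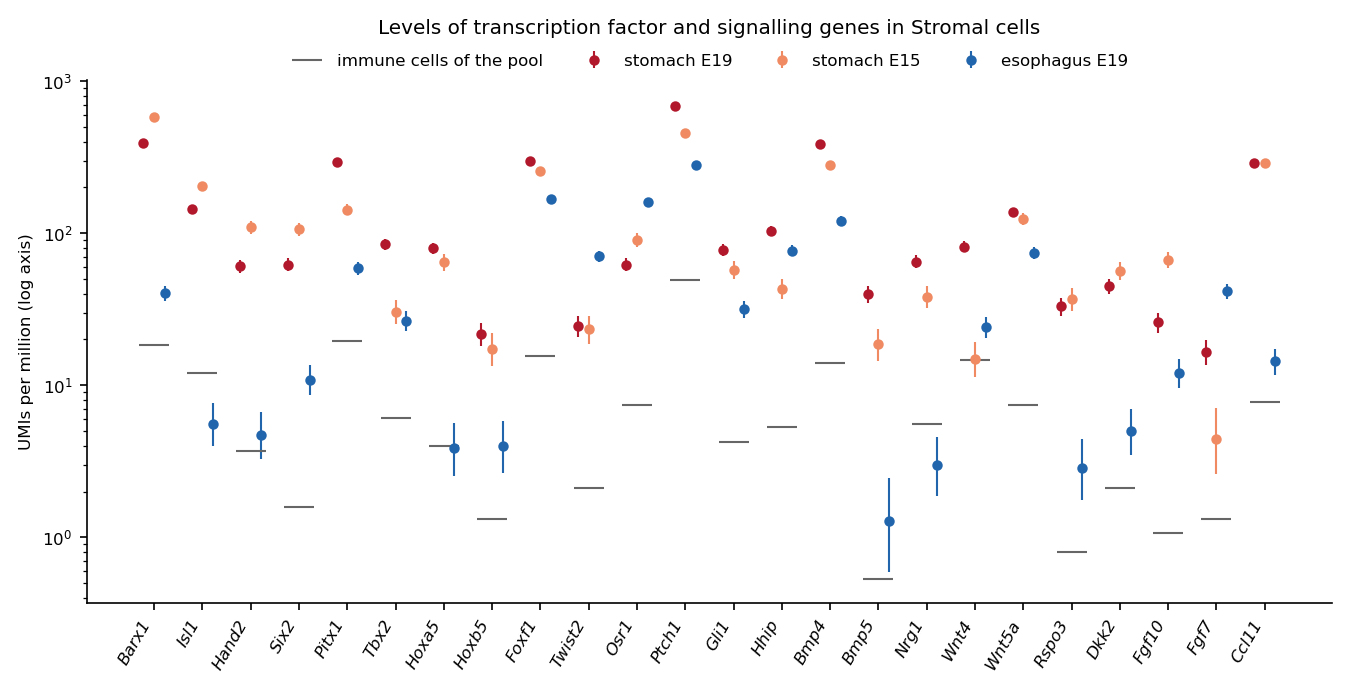
Levels in CPM (log axis) of 24 transcription factor and signalling genes in Stromal cells of the stomach at E19, the stomach at E15 and the esophagus at E19, with exact 95% counting intervals. Grey bars give the immune cells of the whole pool as background, and for Isl1, Hoxa5, Hand2 and Bmp5 the esophageal level lies near or below 10 CPM while the stomach levels lie above it.

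Transcription factor genes separated the regions. Barx1 was at 393 CPM in the stomach at E19, 576 CPM (552 to 601) at E15 and 40.1 CPM (35.6 to 45.1) in the esophagus at E19, where the immune cells of the pool, which should lack it, were at 18.3 CPM. Isl1 (chr13:116298281-116309689, minus strand), a LIM homeobox gene of the pyloric and gastric mesenchyme, was at 144 CPM (135 to 154), 203 CPM (189 to 218) and 5.59 CPM (3.97 to 7.64). Both genes were at their highest at E15, and in the esophagus Barx1 was above that background while Isl1 was below the 12.0 CPM of the immune cells. The log2 ratio over the esophagus was 3.29 (3.11 to 3.47) for Barx1 and 4.66 (4.20 to 5.15) for Isl1.

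Hand2, a basic helix-loop-helix gene of visceral mesenchyme, had 60.5 CPM in the stomach at E19, 109 CPM at E15 and 4.73 CPM in the esophagus. Six2, a homeobox gene with a role at the pylorus, followed the same order, with 62.2, 106 and 10.9 CPM. Pitx1 and Tbx2 had another order, with the stomach at E19 above both other groups. Pitx1 was at 293, 143 and 58.7 CPM, and Tbx2, a T-box repressor, at 84.7, 30.4 and 26.5 CPM. Of the 30 factors compared with the esophagus, 9 were higher and 6 lower with a median of 0.12, while of 27 compared with E15 only Pitx1 and Tbx2 were higher and 0 lower, with a median of -0.30. Tcf21, a factor of mesenchyme in many organs, was similar in all, at 378, 342 and 402 CPM, and Foxf1, a hedgehog-responsive forkhead gene, was at 299, 255 and 168 CPM.

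Hox genes were higher in the stomach than in the esophagus in 4 of 9 compared and lower in 0, with a median of 0.44, and 0 of 10 passed 2-fold between stages. Hoxa5 (chr6:52201754-52204587, minus strand) had 79.6 CPM (72.9 to 86.7) in the stomach at E19, 64.4 CPM (56.6 to 73.0) at E15 and 3.87 CPM (2.55 to 5.63) in the esophagus at E19. Hoxb5 had 21.6, 17.3 and 4.01 CPM. Hoxb4 did not reach 2-fold, with 46.6 CPM in the stomach and 41.6 CPM in the esophagus. Hoxb8 had 83 UMIs in the stomach at E19 and 0 in the esophagus, which makes it at least 29.2-fold higher against the floor of 3 UMIs over the group. It had fewer than 100 UMIs and so was not among the genes compared.

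The factors on the other side were those of the esophageal mesenchyme. Tbx5 and Foxd1 had 0 UMIs in the stomach at E19 and 22.4 and 21.6 CPM in the esophagus, so they were at least 49.3-fold and 47.7-fold lower in the stomach. Nkx6-1, a homeobox gene, had 3.18 CPM (1.97 to 4.86) against 99.2 CPM (91.9 to 107) in the esophagus. Twist2 and Osr1 were lower by smaller ratios, at 24.5 against 70.4 CPM and 62.2 against 161 CPM.

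The upstream sequence of 3 of these position genes is shown because these genes are transcription factors that stood higher in the stomach than in the esophagus. The windows are the 250 bases before the annotated start in RefSeq (GRCm38.p6), 5′ to 3′ on the strand of the gene. For Barx1 and Isl1 RefSeq places the start downstream of the gene start given above from the GRCm38 annotation, so the last bases of these windows lie within the gene as placed there. Capitals mark the letters CTAATG, a core that ISL1 and related factors bind.
Barx1, chr13:48662786-48663035, plus strand: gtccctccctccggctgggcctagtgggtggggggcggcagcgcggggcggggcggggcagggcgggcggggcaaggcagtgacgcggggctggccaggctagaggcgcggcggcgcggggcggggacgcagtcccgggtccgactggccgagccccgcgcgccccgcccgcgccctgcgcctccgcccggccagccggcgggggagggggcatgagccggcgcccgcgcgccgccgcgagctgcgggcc
Isl1, chr13:116309689-116309938, minus strand: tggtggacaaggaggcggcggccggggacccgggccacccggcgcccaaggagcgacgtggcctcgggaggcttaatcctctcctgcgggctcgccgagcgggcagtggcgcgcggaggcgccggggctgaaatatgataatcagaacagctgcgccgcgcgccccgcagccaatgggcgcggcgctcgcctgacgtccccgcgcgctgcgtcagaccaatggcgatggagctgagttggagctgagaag
Hoxa5, chr6:52204588-52204837, minus strand: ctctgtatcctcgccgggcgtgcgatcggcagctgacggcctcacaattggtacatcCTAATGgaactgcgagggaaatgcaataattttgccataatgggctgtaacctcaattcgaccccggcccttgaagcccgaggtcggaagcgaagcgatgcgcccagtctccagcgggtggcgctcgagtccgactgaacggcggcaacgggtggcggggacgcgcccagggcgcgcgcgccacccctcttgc
The Barx1 window was 85.6% G and C, the Isl1 window 71.2% and the Hoxa5 window 63.6%. CTAATG was found, on either strand, 1 time in the Hoxa5 window and not in the other two. Over 32851 promoter windows of the same length, 6.36% held CTAATG, 4.84% held TAATTA, a core of many homeodomain proteins, and 0.225% held GACCACCCA, the core bound by GLI proteins. Among the 298 windows matched to genes higher in the stomach than in the esophagus, 9, 4 and 0 held these letters (3.02%, 1.34% and 0%), and among the 222 windows of genes lower in the stomach 15, 8 and 0 did (6.76%, 3.60% and 0%). CTAATG and TAATTA can share the letters TAAT, and these counts describe the letters in the windows only.

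Ptch1 and Gli1, targets of the hedgehog pathway, stood higher in the stomach than in the esophagus. Ptch1, both the receptor and a target of the pathway, had 686 CPM (666 to 706) in the stomach at E19, 455 CPM (434 to 477) at E15 and 279 CPM (267 to 292) in the esophagus at E19. Gli1, a transcription factor that the pathway induces, had 77.7, 57.6 and 31.5 CPM in the same order. The stomach at E19 was the highest group for both genes and passed 2-fold only over the esophagus. Hhip, a decoy receptor that the pathway also induces, passed 2-fold only over E15, with 103 CPM against 43.0 at E15 and 76.7 in the esophagus. Cdon, a coreceptor, was higher than in the esophagus, with 29.0 against 7.74 CPM, while Gas1, another coreceptor, was lower, with 143 against 294 CPM. Of 11 genes of the list, 3 were higher and 1 lower over the esophagus with a median of 0.32, and 1 was higher and 0 lower over E15 with a median of -0.15.

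BMP ligands gave 5 of 8 higher and 0 lower over the esophagus, with a median of 1.52. Bmp4, a mesenchymal ligand induced by hedgehog signals in gut, was at 388 CPM (373 to 403) in the stomach at E19, 280 CPM (264 to 298) at E15 and 120 CPM (112 to 129) in the esophagus. Bmp5 was at 39.6, 18.6 and 1.29 CPM, Bmp3 at 35.2, 23.0 and 1.00 CPM, and Bmp7 at 25.3, 21.0 and 5.01 CPM. For each of these ligands the esophageal interval lay below both stomach intervals. The response genes Id1, Id3 and Smad6, which BMP signals induce, were also higher than in the esophagus, with 118 against 31.7, 408 against 162 and 19.8 against 5.44 CPM. In all, 4 of 10 BMP receptor and response genes were higher and 1 lower, with a median of 0.36. Antagonists split, with Grem1 and Fst higher, at 21.0 against 3.30 and 23.4 against 6.30 CPM, and Sostdc1, Nbl1 and Chrd lower, at 8.62 against 77.7 CPM for Sostdc1.

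WNT genes were mixed. Rspo3, an R-spondin that amplifies WNT signals, had 33.0 CPM (28.7 to 37.7) in the stomach at E19, 36.7 CPM (30.8 to 43.3) at E15 and 2.87 CPM (1.75 to 4.43) in the esophagus at E19. The inhibitor Dkk2 had 44.6, 56.3 and 5.01 CPM, and the inhibitor Sfrp2 had 97.7, 218 and 26.7 CPM. In the Stromal cells of E19, an amplifier and inhibitors of WNT signals were thus both higher in the stomach than in the esophagus. The paper describes Dkk2 as strong in esophageal fibroblasts and smooth muscle cells and relatively low in the stomach. Its evidence includes in situ RNA counts, and cells of the smooth muscle label were not part of the comparison made here. The paper places Dkk2 and Sfrp4 in adult esophageal fibroblasts, a stage outside this comparison. Wnt4 was at 81.4 CPM against 24.1 CPM in the esophagus, Wnt5a at 137 against 74.1 CPM, short of 2-fold, and Wnt2 at 1.21 against 22.8 CPM. Inhibitors, with Sfrp4 among those higher, counted 3 of 7 higher and 0 lower over the esophagus, and ligands with R-spondins 2 of 6 higher and 1 lower. Without cells that held a Kit UMI, Sfrp4 was at 7.47 against 3.87 CPM and no longer passed 2-fold.

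Growth factors differed in both directions, with 7 of 22 higher and 6 lower over the esophagus. Nrg1, a ligand of ERBB receptors, had 65.0 CPM (59.0 to 71.5) in the stomach at E19, 38.2 CPM (32.3 to 45.0) at E15 and 3.01 CPM in the esophagus at E19. The neurotrophin gene Bdnf was at 17.1 against 2.29 CPM, and Hgf, the hepatocyte growth factor, at 14.7 against 2.72 CPM. Fgf10 was higher than in the esophagus, at 25.9 against 12.0 CPM, and Fgf7, its close relative, lower, at 16.5 against 41.4 CPM. Without cells that held a Kit UMI, Fgf10, at 21.4 against 11.2 CPM, and Gdnf, at 6.45 against 5.42 CPM, both among the 7 higher, no longer passed 2-fold. Sct, the hormone secretin, had 173 UMIs in the stomach at E19 (26.2 CPM, 22.4 to 30.4), 44 at E15 (11.5 CPM) and 0 in the esophagus, at least 60.9-fold higher than there. Ccl11, the eosinophil chemokine eotaxin, was at 287 CPM in the stomach at E19, 288 CPM at E15 and 14.3 CPM in the esophagus. Its interval at E19, 275 to 301, lay within that at E15, 271 to 306, so no stage difference was detectable. Ednrb, an endothelin receptor, was higher than in both groups, at 309, 135 and 49.7 CPM.

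Abundant fibrillar collagens and decorin (Dcn) stood lower in the stomach than in the esophagus, while most members of the matrix lists lay within 2-fold. Col1a1 was at 5148 against 11952 CPM (11871 to 12033), Col3a1 at 6300 against 16265 CPM (16170 to 16360) and Dcn at 1989 against 6728 CPM (6668 to 6790). Of 23 collagens, 5 were lower and 4 higher with a median of -0.11, and those higher were not fibrillar, Col6a4 at 435 against 71.8 CPM, Col15a1 at 181 against 34.0 CPM, Col4a6 and Col26a1. Of 18 elastic fibre genes, 4 were lower and 0 higher with a median of -0.47, and of 26 matrix proteoglycans and glycoproteins 5 were lower and 2 higher with a median of -0.08. Adventitial genes counted 6 of 11 lower and 2 higher with a median of -1.50, with Clec3b at 31.0 against 344 CPM, Gsn (gelsolin, which severs actin filaments) at 400 against 2069 CPM, Cd34 at 127 against 564 CPM and Mfap5 at 465 against 1483 CPM. Subepithelial genes counted 8 of 14 higher and 0 lower with a median of 1.49. Mfap5, Clec3b, Dpt, Cd34 and Gsn, which were higher at E19 than at E15, thus had their highest level of the 3 groups in the esophagus, whereas Sfrp4 was highest in the stomach at E19, at 19.1 CPM against 3.73 CPM in the esophagus. Of its UMIs there, 65.9% lay in the Kit-rich subcluster and 15.1% in 1 cell, and without cells that held a Kit UMI it was at 7.47 against 3.87 CPM and no longer passed 2-fold.

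Other genes named by rule on the esophageal side were Thbs4 (thrombospondin 4), at 1.06 CPM (0.426 to 2.18) against 114 CPM (106 to 122), Crhbp, a binding protein of corticotropin-releasing hormone, with 0 UMIs against 21.6 CPM, Kera (keratocan) at 2.12 against 90.4 CPM, Cntn4 at 0.756 against 47.3 CPM, Gabrg3 at 1.21 against 43.8 CPM, and Retnlb, with 0 UMIs against 14.9 CPM. On the stomach side, Avpr1a, a vasopressin receptor, was at 23.0 against 0.430 CPM, Srpx2 at 43.4 against 1.58 CPM and the sulfotransferase gene Ndst3 at 16.8 against 0.573 CPM. Aldh1a2, which makes retinoic acid, was lower than in the esophagus, at 78.2 against 304 CPM, though higher than at E15.

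Of 20 mitosis genes, 4 were higher in the stomach than in the esophagus and 0 lower, with a median of 0.79. Of 16 DNA replication genes 1 was higher, near the 4.11% of all 10009 genes that were, with a median of 0.61. Ube2c was at 186 against 80.4 CPM. The 4 globin genes compared were all lower. Of 6 pericyte markers 5 were higher, with Kcnj8 at 54.3 against 12.0 CPM and Cspg4 at 53.1 against 10.7 CPM, but Rgs5 was not past 2-fold, at 239 against 122 CPM. None of 7 smooth muscle markers passed 2-fold between the regions.

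**Figure D3:**
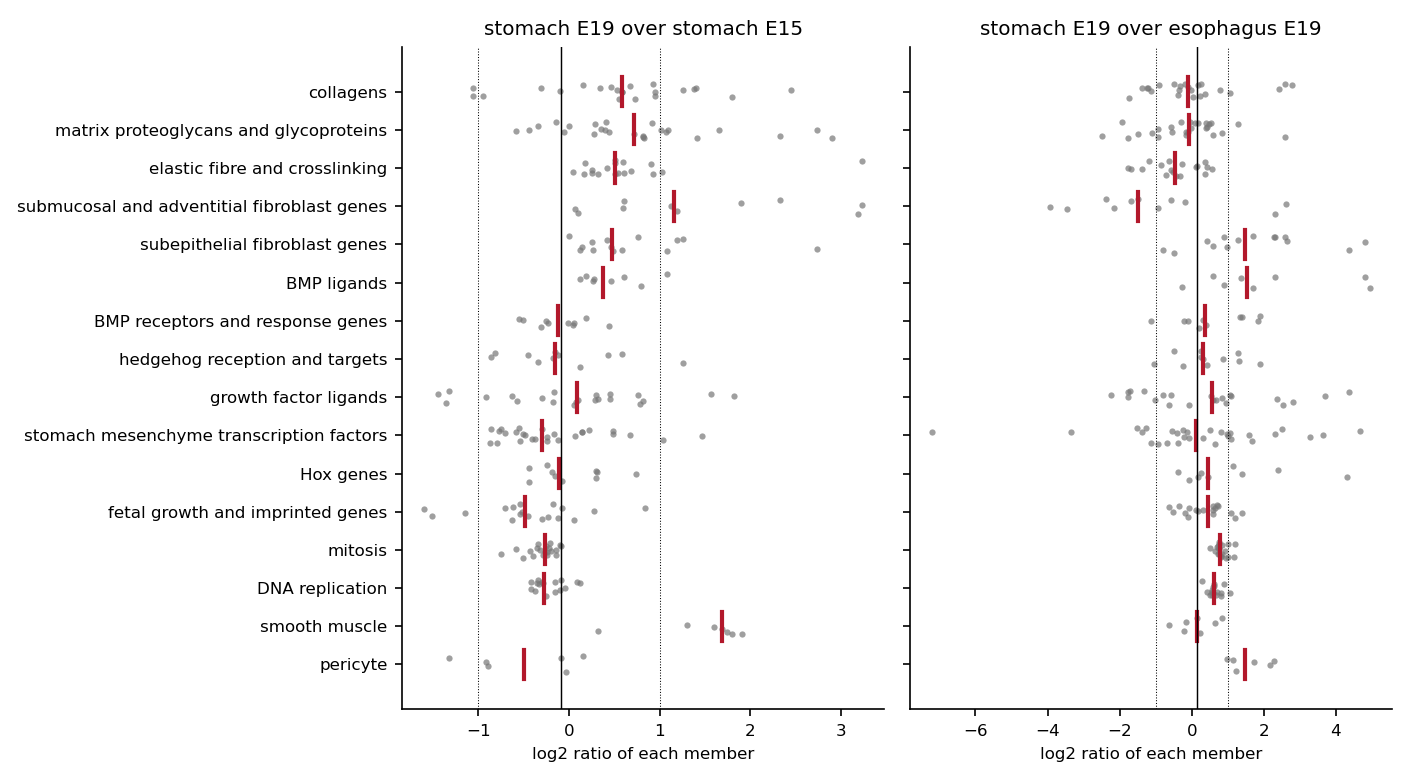
Each grey dot is 1 member of a gene list with at least 100 UMIs, placed at its log2 ratio of the stomach at E19 over the stomach at E15 (left) or over the esophagus at E19 (right). Red bars are list medians, the solid line is the median of all genes compared (-0.08 and 0.14) and dotted lines mark 2-fold, and the smooth muscle and adventitial lists lie furthest to the right of the lists drawn in the stage comparison while the BMP ligands, subepithelial and pericyte lists do so in the region comparison. The interstitial cell of Cajal list, with a median of 1.64 over the esophagus from 3 genes, is not drawn.

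Few genes set the stomach fibroblasts at E19 apart from both the stomach at E15 and the esophagus at E19. Of 9323 genes compared in both, 49 (0.526%) were at least 2-fold higher than in each and 3 (0.0322%) at least 2-fold lower than in each. Since both comparisons share the E19 stomach cells, these counts are a description. Among those with no other class of the pool at over 5 times their level, the 10 with the largest smaller ratio were AW112010, Unc13c, Tnc, Col15a1, Edn1, Syt13, Mamdc2, Angptl6, Trac and Slc38a5. The GE-SCJ at E19, which did not enter this count, stood near the stomach for several, with Tnc at 99.8 CPM, Col15a1 at 184 CPM, AW112010 at 17.5 CPM and Trac at 18.5 CPM there. Tnc had 108 CPM against 16.0 in the stomach at E15 and 17.8 in the esophagus, and Col15a1 had 181 CPM against 33.0 and 34.0. Edn1, the vasoconstrictor endothelin 1, had 23.0 CPM (19.5 to 26.9) against 4.19 and 3.44, and Angptl6, an angiopoietin-like secreted protein, had 35.1 CPM against 10.5 and 5.59. Trac, annotated as the constant region of the T cell receptor alpha chain, had 17.1 CPM against 5.24 and 1.15, in cells with 8 UMIs of the leukocyte gene Ptprc in all. The esophagus at E15, which did not enter this count, stood above the stomach at E15 for Trac. The log2 ratio of stomach over esophagus there was -1.80 (-2.58 to -1.08) from 92 UMIs. In the esophagus, the log2 ratio of Trac at E19 over E15 was -3.89 (-5.08 to -2.89) from 80 UMIs. The 3 genes lower than in both were Flrt3 at 15.9 CPM against 37.2 and 54.9, Cxxc4, an inhibitor of WNT signalling, at 14.2 CPM against 31.2 and 61.9, and Klhl29 at 6.96 CPM against 19.1 and 14.2. All 3 fell short of 2-fold over E15 under at least 1 alternative given below, as did Mamdc2, Trac and Slc38a5 among those higher. With 10 CPM added to each level, 0 genes were lower than in both.

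Shares of cells were compared after each cell was thinned to 5000 UMIs, which kept 618 cells of the stomach at E19, 325 at E15, 677 of the esophagus and 253 immune cells of the pool as background, and left out 83, 35, 62 and 101. A Barx1 UMI was then found in 84.3% of stomach fibroblasts at E19 (81.2% to 87.1%), 89.8% at E15, 15.1% in the esophagus and 8.30% of immune cells. Isl1 was found in 45.1%, 58.5%, 2.22% and 4.74%, so its esophageal share was no higher than the background. Hoxa5 was found in 28.3%, 27.1%, 1.18% and 1.58%.

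Among the signalling ligands, Bmp4 was in 65.9% and Wnt5a in 43.4% of the cells at E19, against 4.74% and 2.77% of the immune cells. Bmp5 was in 12.1% of the cells at E19, 7.08% at E15 and 0.443% in the esophagus, and Nrg1 was in 12.3%, 9.54% and 1.62%, against 0% and 0.791% of the immune cells. Tnc was in 26.4%, 5.54% and 4.58%, and Mfap5 in 53.1%, 14.8% and 92.0%, against 2.37% and 5.14% of the immune cells. Without thinning, Barx1 was found in 93.3% of the E19 stomach cells and Hoxa5 in 43.1%.

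The same directions were looked up in other pairs of samples. None of these pairs holds a group of the comparison it is set beside, although the stomach at E15 and the esophagus at E19 enter the other main comparison. Of the 299 genes higher in the stomach at E19 with at least 100 UMIs at E15, 137 (45.8%) were also at least 2-fold higher in the stomach than in the esophagus at E15, where 2.45% of all genes were, and 279 (93.3%) had the same sign, as 63.8% of all genes did. Of 189 genes lower at E19, 132 (69.8%) were also 2-fold lower at E15, where 2.59% of all genes were. In pups, 12 of 45 and 28 of 81 passed 2-fold the same way, where 2.08% and 3.33% of all 1830 genes did. For the stage, 58 of 149 genes (38.9%) higher in the E19 stomach were also higher in the E19 than the E15 esophagus, where 1.85% of all genes were, and in the GE-SCJ 84 of 169 were, where 1.61% of all genes were. Of the genes lower in the E19 stomach, 24 of 47 (51.1%) were also lower in the esophagus, where 1.31% of all genes were, and 11 of 64 (17.2%) in the GE-SCJ, where 0.341% were.

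**Figure D4:**
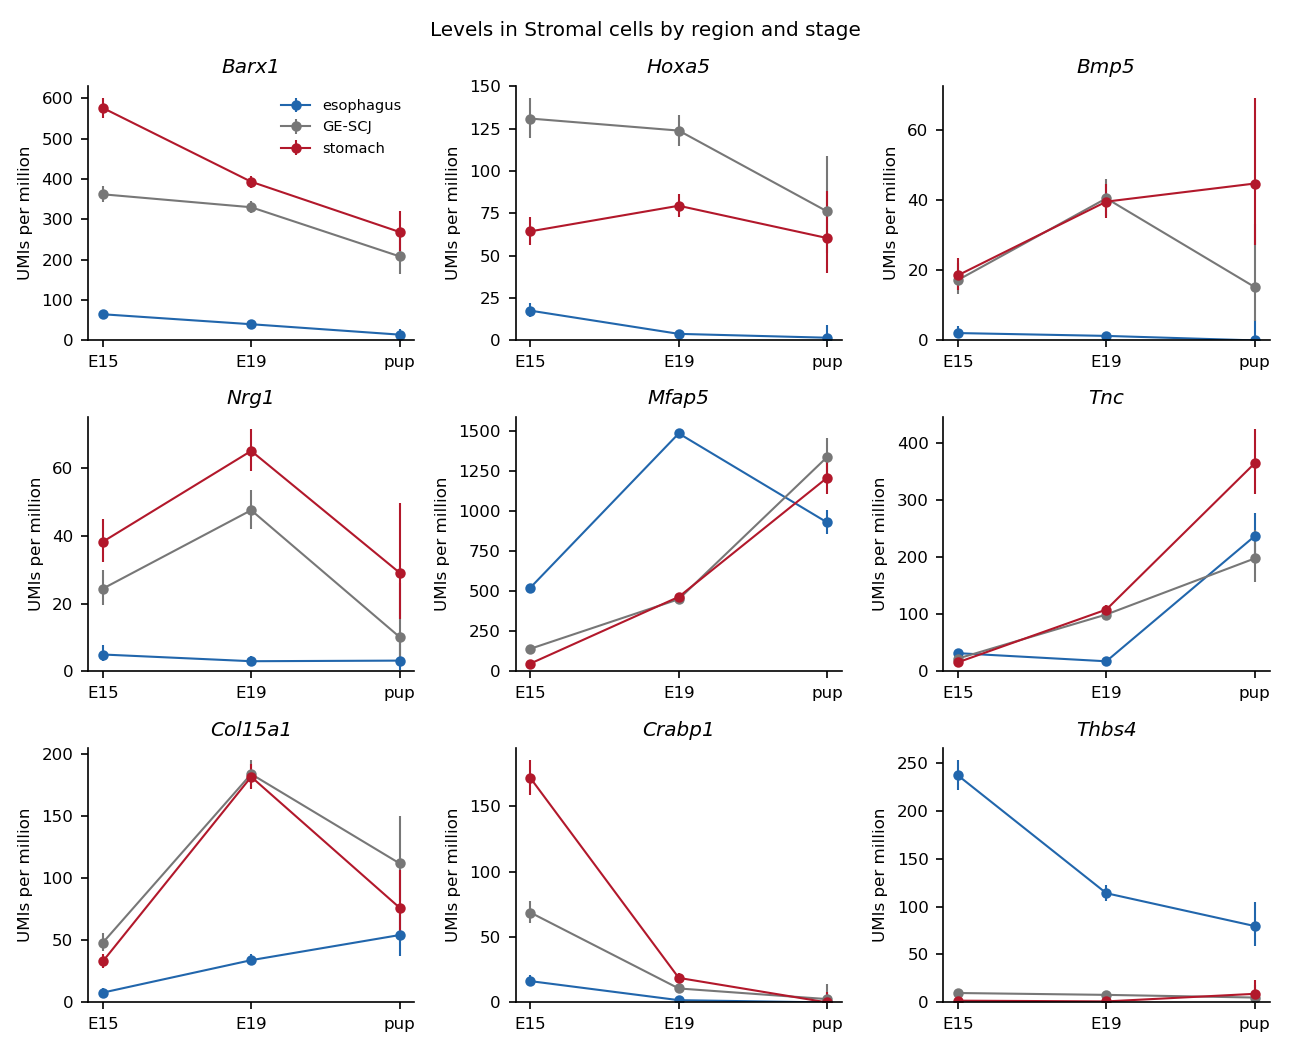
Levels in CPM of 9 genes in Stromal cells of stomach, GE-SCJ and esophagus from E15 and E19 embryos and from pups of day 2, with exact 95% counting intervals and each vertical axis starting at 0. Lines join samples of 1 region, and in the stomach Barx1 and Crabp1 are lower at each later stage while Mfap5 and Tnc are higher at each.

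At E19, the level in the 588 Stromal cells of the GE-SCJ was nearer to the stomach than to the esophagus for 7033 of all 10009 genes compared (70.3%). It was nearer to the stomach for 400 of the 411 genes higher in the stomach and for 262 of the 305 lower genes, and lay between both regions for 274 and 235 of these and for 45.9% of all genes. Barx1 was at 330 CPM there and Hoxa5 at 124 CPM, which was above the 79.6 CPM of the stomach. The 78 Stromal cells of the pup stomach had 269 CPM of Barx1, 1207 CPM of Mfap5, 365 CPM of Tnc and 0 UMIs of Crabp1, which allows up to 6.72 CPM at its depth of 446519 UMIs. Of the pup stomach cells, 93.6% held Xist UMIs and none of a Y-linked gene, against 38.1% at E19 and 11.9% at E15, so stage and sex cannot be told apart here. Mfap5 and Tnc had their highest level of these 3 stomach stages in the pup, whereas Col15a1 was at 76.1 CPM there and Wnt4 at 82.9 CPM, close to its level at E19.

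The 701 cells were not uniform. Leiden clustering of these cells alone gave 7 subclusters, which are described by their genes without a test, since the same genes made them. Barx1 was in every one of them, from 316 to 537 CPM, and Isl1 ranged from 82.1 to 183 CPM. Between 6 and 10 subclusters were found under the 6 other settings. The share of cells that stayed together fell to 48.2% for subcluster 1, 60.9% for subcluster 2, 61.8% for subcluster 4 and 70.6% for subcluster 5 under the least favorable of them, and was at least 93.1% for subclusters 3, 6 and 7.

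Subcluster 1 (164 cells, 23.4%) led with Edn1, Sct, Ahr, Col6a5, Tbx2 and Wnt4. It held 22.2% of all UMIs but 56.6% of those of Sct, 59.2% of Edn1, 50.2% of Tbx2 and 48.9% of Wnt4. Subcluster 2 (128 cells, 18.3%) was made of dividing cells, led by histone genes, Nusap1 and Plk1. It held 91.9% of the Mki67 UMIs and had the highest median depth, 13216 UMIs.

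Subcluster 3 (116 cells, 16.5%) led with Tek, Sptssb, Sema3c and Dpt, with Dpt at 848 CPM, Col14a1 at 768 CPM and Col3a1 at 12394 CPM. It held 46.3% of the Dpt UMIs and 50.9% of those of Sema3c, a guidance ligand. Chga and Ghrl, genes of endocrine cells, also led it, but over the 701 cells 86.2% of the Chga UMIs and 40.0% of the Ghrl UMIs came from 1 cell. Subcluster 4 (110 cells, 15.7%) was smooth-muscle-like, with Cnn1, Tagln, Actg2 and Myocd among its 10 leading genes. It held 56.1% of the Tagln UMIs, with Acta2 at 4186 CPM, and had the highest Mfap5, at 1157 CPM.

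Subcluster 5 (96 cells, 13.7%) led with Dcx, Trac, Spon1, Crabp1, Igfbp2 and Agtr2, the type 2 receptor of angiotensin. It held 74.2% of the Crabp1 UMIs, 81.4% of those of Trac and 54.8% of those of the imprinted gene Mest, all from 12.4% of the UMIs of the cells. Gas1 was at 623 CPM, against 9.55 CPM in subcluster 1, and the hedgehog target Ptch1 was at 106 CPM, against 1062 CPM. Other genes lower at E19 than at E15 also had large shares of their UMIs here, with 55.7% for Cxcl13 and 47.6% for Ptn. Gfra1 was split between this subcluster, with 42.9% of its UMIs at 55.1 CPM, and subcluster 6, with 40.0% at 144 CPM.

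Subcluster 6 (54 cells, 7.70%) was interstitial-cell-of-Cajal-like, after the pacemaker cells of the gut wall. All 4 markers were at their highest there, the receptor Kit at 1345 CPM, Etv1 at 1601 CPM, the chloride channel gene Ano1 at 212 CPM and Prkcq at 54.7 CPM, although Kit alone was among the 10 leading genes. It held 83.6% of the Kit UMIs from 4.42% of all UMIs. Its collagen was low, with Col1a1 at 1581 CPM, Dcn at 127 CPM and Pdgfra at 34.2 CPM, and its median depth was 4820 UMIs. The summed fibroblast markers were at 4743 CPM, the lowest of the 7. Dkk2, at 318 CPM, and Grem1, at 113 CPM, were also at their highest here, as was Sfrp4, at 284 CPM. Over the whole group Kit was at 71.1 CPM at E19, 152 CPM in the stomach at E15 and 22.8 CPM in the esophagus.

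Subcluster 7 (33 cells, 4.71%) led with Gja1, Fgf9, Procr, Nrg1, Bmp7, F3 and Bmp5. Pdgfra was at 996 CPM, Bmp4 at 1189 CPM, Foxl1 at 135 CPM and Hhip at 523 CPM. These cells held 4.92% of all UMIs but 45.4% of those of Bmp5, 51.2% of Nrg1 and 65.1% of Fgf9, so much of the signal of these ligands came from few cells. The summed subepithelial list was at 8136 CPM, against 3040 CPM in subcluster 1, the next highest. The immune gene Tyrobp, at 64.5 CPM, and Hbb-bs, at 1008 CPM, were also highest here, but all 21 Tyrobp UMIs and 286 of the 328 Hbb-bs UMIs of the subcluster came from 1 cell each, and Hbb-bs was at 135 CPM without its richest cell. Bmp5 had UMIs in 30 and Nrg1 in 28 of the 33 cells. Its cells, as far as a setting kept them, stayed together under each of the 6 other clustering settings.

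**Figure D5:**
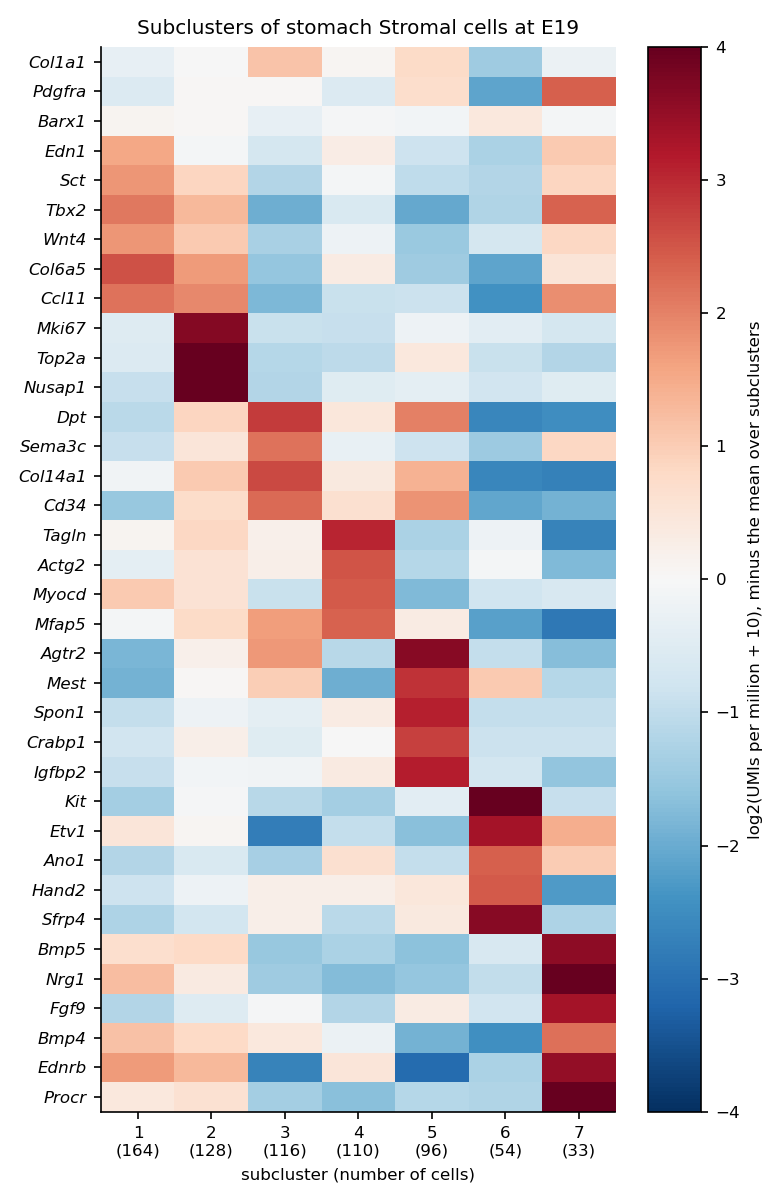
Columns are the 7 subclusters of the stomach fibroblasts at E19 with their numbers of cells, and rows are genes. Color gives log2(CPM + 10) minus the mean over the subclusters, from blue (lower) to red (higher), and Barx1 is near 0 in all 7 while Kit is red in subcluster 6 and Bmp5, Nrg1 and Procr in subcluster 7.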

How the data were processed

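Tagged cells of every region and stage were captured together by 3′ droplet sequencing (10x CellPlex), and the authors aligned, demultiplexed and counted reads with Cell Ranger 6.1.1 on mm10 (GRCm38). The deposited matrix held counts, as UMIs of 19550 genes in 7808 cells that the authors kept after dropping barcodes under 100 genes, over 8500 genes, over 80000 UMIs or over 20% mitochondrial UMIs. To reach this number the authors also left out subgroups of cells that had passed these limits but had poor read counts. The deposited cell table held the tag, the cell type label, total counts and the mitochondrial percent of each cell, and the totals matched the matrix in all 7808 cells. Doublets were left as the authors left them.

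From these files, UMIs were summed per group and expressed as CPM with exact Poisson 95% intervals. Log2 ratios had 1 UMI added to each sum and an exact conditional interval. Genes needed 100 UMIs over both groups, and a ratio of 2-fold counted as higher or lower. With 1 pooled sample per group no test was run. A sum of 0 was set to the floor of 3 UMIs per group for fold bounds. Named genes were the 10 of largest ratio in each direction of each comparison with a UMI in at least 5% of the cells of the higher group and no other class of the pool at over 5 times its level, which left out 41 and 8 genes by stage and 63 and 34 by region, with members of the gene lists named for their role. Xist and Y-linked genes were not named, and a few other genes are not reported here. Members and lists were chosen with earlier results of these data known. Shares used cells thinned to 5000 UMIs (seed 1) with Clopper-Pearson intervals. Subclusters used log-normalized counts (10000 UMIs per cell), 2000 variable genes, 20 components, 15 neighbours and resolution 0.5. Positions came from the GRCm38 gene annotation and upstream windows from RefSeq (GRCm38.p6). The ratio step was tested on group sums simulated from a pooled profile, with planted log2 changes of 2 and 3 in either direction. These sums held no variation between cells or embryos, and clustering and the naming of genes were not simulated. The tools were scanpy 1.11.5 for clustering, scipy 1.17.1 for intervals, and numpy 2.4.6, pandas 2.3.3 and matplotlib 3.10.9 under Python 3.11.15.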

Additional observations from a re-analysis of the deposited data

How the results depend on the processing

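No paired analysis was possible because each region and stage was 1 pooled sample without replicate numbers. Counts are given in the order higher than at E15, lower than at E15, higher than in the esophagus, lower than in the esophagus, higher than in both and lower than in both, beside 179, 81, 411, 305, 49 and 3. A minimum of 30 UMIs gave 350, 244, 728, a count within 1.5 times, 108 and 23, and no minimum beyond 1 UMI gave 1033, 1503, 2457, 1195, 434 and 325, since more genes were then compared. With 10 CPM added to each level the counts were 84, 30, 203, 177, 21 and 0. With cells thinned to 5000 UMIs they were 118, 47, within 1.5 times for both region counts, 26 and 5. Without cells that held a UMI of a mitosis gene, which left 225, 103 and 324 cells, they were 71, 36, 216, 179, 14 and within 1.5 times, and of the genes still compared 53 of 84 higher and 14 of 21 lower by stage, 157 of 164 higher and 159 of 183 lower by region and 9 of 22 higher than in both passed 2-fold again. Joining the smooth muscle label moved only the last by over 1.5 times, to 6. The genes behind the counts changed more, since 136 of 179 higher and 49 of 81 lower by stage passed 2-fold again. By region 339 of 411 higher and 275 of 305 lower did, and 37 of 49 higher than in both. Mean CPM per cell, stricter cell filters, another library size, centring on the median, and leaving out the deepest cells or those with more smooth muscle than fibroblast marker UMIs moved none by that much, although centring turned the region split to 324 higher and 376 lower. Among alternatives chosen after seeing the data, cells with Y-linked UMIs and none of Xist gave 107, 51, 225, 177, 25 and 1, and 81 of the 96 stage genes and 166 of the 184 region genes higher in all cells and still compared passed 2-fold again, as did 15 of 22 higher than in both. Cells with Xist UMIs and none of a Y-linked gene, 43 of them at E15, gave 215 higher than in the esophagus, 31 higher than in both and 5 lower than in both, with the other counts within 1.5 times. By stage these cells gave 175 higher and 59 lower of only 4769 genes. Among them were 82 of the 93 higher and 14 of the 17 lower genes of all cells still compared. By region 176 of 218 higher and 191 of 204 lower passed 2-fold again, as did 21 of 25 higher than in both. No count moved by over 1.5 times without cells with both kinds of UMI or without cells with a Kit UMI. Nor did any without the 5% of cells with the highest share of columnar marker UMIs. Without Kit cells, 129 of 165 higher and 42 of 53 lower by stage, of the genes still compared, passed 2-fold again. By region 351 of 366 higher and 288 of 294 lower did, and 29 of 45 higher than in both. Of the 63 ratios of named genes, 54 stayed past 2-fold under all 18 alternatives and none changed direction. A change of the UMI minimum alone could not move such a ratio. The ratios that fell short of 2-fold under at least 1 alternative were those of Scx, Gfra1, Mamdc2, Trac, Slc38a5, Flrt3, Cxxc4 and Klhl29 over E15, and of Klhl29 over the esophagus. The cause of these moves was not tested. Shares of cells with a UMI depended on depth, since 53 of 64 moved beyond their interval at 2000 UMIs or at each cell's own depth. Low genes rested on few UMIs, and embryo and litter cannot be told apart from stage.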

Other observations

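Of 14 TGF-beta and activin genes compared with the esophagus, 6 were higher and 2 lower, with the cytokine gene Tgfb1 at 23.6 CPM in the stomach at E19, 14.4 CPM at E15 and 7.31 CPM in the esophagus. Over E15 only Inhba, a subunit of activin, was higher of 12, at 16.5 against 6.02 CPM. Of 20 Notch, ephrin and axon guidance genes, 6 were higher and 2 lower than in the esophagus, with the Notch ligand Dll1 at 24.7, 25.4 and 1.86 CPM, and of 21 compared with E15 0 were higher and 1, Jag1, was lower.

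The complement protease C1s1 stood low in the stomach, at 33.9 CPM at E19, 9.43 CPM at E15 and 186 CPM in the esophagus. The chemokine Cxcl12 was higher in the stomach, at 201, 259 and 81.8 CPM. In all, 2 of 10 chemokine, cytokine and complement genes were higher and 3 lower than in the esophagus, and 3 of 9 higher and 1 lower than at E15.

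The immediate early gene Fosb, which also reacts to tissue dissociation, was at 458, 559 and 128 CPM and was the single gene of 15 on its list past 2-fold over the esophagus. All 15 immediate early and heat shock genes had a ratio above 0 there, with a median of 0.54 and a sum of 6301 against 4189 CPM, and their part in the other differences was not tested. Over E15 Hspa1b was higher and Nr4a1 lower on that list. Of 15 matrix proteases and inhibitors, 1 was higher over E15 and 2 were lower than in the esophagus. IGF binding genes gave 1 of 6 higher over E15, and 2 higher and 1 lower over the esophagus. Growth factor receptors gave 1 of 8 lower over E15, Kit, and 2 of 9 higher over the esophagus. WNT response genes gave 1 of 4 lower than in the esophagus, Nkd1. None of 12 glucocorticoid response genes and none of 7 lipid handling genes passed 2-fold in either comparison. Of all genes compared, 1.91% were higher and 0.862% lower than at E15, and 4.11% were higher and 3.05% lower than in the esophagus. Counts of 0 or 1 member in lists this short are therefore not read as results about the lists. Among marker lists of other cells, the squamous list summed to 124 CPM at E19, 93.2 CPM at E15 and 127 CPM in the esophagus, the mesothelial list to 51.7, 45.3 and 43.4 CPM, and the skeletal muscle list to 5.90, 4.19 and 7.31 CPM.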
